A study of Mus musculus with 8 samples.

Results

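The 36 genes described here are transcripts that cells raise in answer to type I and type III interferons. They form a list of gene names, drawn up with earlier results of these data known, among the 40178 genes that the colon or the ileum table lists, and each of the 36 is listed in both tables. RNAseq was performed on intestinal epithelial cells (IECs) that EDTA washes released from the colon and the ileum of 8-week-old mice. WTIEC mice carried Ddx5 +/+ and Villin1Cre+, and DDX5ΔIEC mice carried Ddx5 fl/fl and Villin1Cre+, so the controls held the Cre transgene too. Each tissue and genotype had 2 libraries, 8 in all. They came from 4 mice, because colon and ileum libraries that share a genotype and a number were from one animal. Villin1Cre acts in the gut epithelium, so Ddx5, which encodes a DEAD-box RNA helicase, was left intact in any other cell type of the EDTA fraction. In every series of values below, replicate 1 stands before replicate 2.

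Type I interferons (interferon alpha and beta) and type III interferons (interferon lambda) bind separate receptors at the cell surface. Both receptors activate ISGF3, a complex that includes STAT2 and IRF9, which enters the nucleus and binds a DNA element called the interferon-stimulated response element, or ISRE. The intestinal epithelium is known for its answer to interferon lambda, and a low basal expression of these genes is present in the gut of healthy mice.

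The ISRE core, GAAANNGAAA on either strand (TTTCNNTTTC when read from the opposite strand), is a feature that played no part in choosing the genes. RefSeq promoter windows of 300 bases, 250 before and 50 after the start of transcription (GRCm38.p6), were at hand for 26 of the 36 genes. The core was present in a window of 14 of these 26 genes (53.8%), beside 3.99% of the 27025 genes with a window and 3.44% of all 32851 windows. The core of the gamma-activated site, TTCNNNGAA, was present for 4 of the 26 genes (15.4%), beside 9.55% of all genes. In 11 genes the ISRE core lay before the start, the last base of its nearest match at a median of 66 bases from it, and in 7 of them within 100 bases. A match is a description of letters and not a measured binding site. The 30-base stretches below hold cores upstream of genes that the expression results turn on, on the coding strand from 5′ to 3′ with one core in capitals.
Isg15 (chr4:156200871-156200900, minus strand): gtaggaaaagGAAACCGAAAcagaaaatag
Oas1a (chr5:120907526-120907555, minus strand): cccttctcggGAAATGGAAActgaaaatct
Oas3 (chr5:120777715-120777744, minus strand): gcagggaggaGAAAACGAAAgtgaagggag
Ddx60 (chr8:61928024-61928053, plus strand): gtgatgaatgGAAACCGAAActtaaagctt
Stat2 (chr10:128270266-128270295, plus strand): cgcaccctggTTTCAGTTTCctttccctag
Ifit1 (chr19:34640794-34640823, plus strand): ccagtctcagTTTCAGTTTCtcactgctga
Ifit3 (chr19:34583397-34583426, plus strand): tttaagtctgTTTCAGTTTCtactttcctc
Rsad2 (chr12:26456553-26456582, minus strand): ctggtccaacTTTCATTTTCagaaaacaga
Bst2 (chr8:71537577-71537606, minus strand): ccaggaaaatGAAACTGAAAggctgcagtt
Trim30a (chr7:104465210-104465239, minus strand): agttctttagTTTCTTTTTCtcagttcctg
In Isg15, the core in capitals overlapped one further core on each side. The cores printed for Ifit1, Ifit3 and Stat2 had the same 10 letters, TTTCAGTTTC. The core printed for Bst2, GAAACTGAAA, is that sequence read from the opposite strand, and Oas1a and Oas1g each had a core with these letters too. The cores printed for Isg15 and Ddx60 shared GAAACCGAAA.

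Several of the genes are neighbours on the chromosome (GRCm38, GENCODE annotation). Oas2, Oas3, Oas1g and Oas1a lie on chromosome 5 from 120730333 to 120907521, and Oasl2 and Oasl1 lie on the same chromosome, 11005 bases apart. Ifit2, Ifit3 and Ifit1 lie on chromosome 19 between 34550694 and 34650009, and Rsad2 and Cmpk2 on chromosome 12 are 12751 bases apart. On chromosome 16, Dtx3l and Parp9 share 682 bases at their 5′ ends on opposite strands, with Parp14 54966 bases away, and Mx1 and Mx2 are 72400 bases apart. The libraries were stranded, but the strand setting of the counting is not given in the sources used here, so reads in the bases shared by Dtx3l and Parp9 may be assigned to either gene. Near-identical copies limit 3 genes, because 57.6% of the 50-base words of Oas1a also occur in Oas1g, 45.7% of those of Oas1g occur in other genes, and 51.2% of those of Ifit3 occur in other genes, mostly Ifit3b. Their counts are uncertain, since only uniquely mapped reads were counted. The annotation lists Mx2 as a polymorphic pseudogene.

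The libraries held 11571061 to 22984283 counts, and every one of the 36 genes had at least 10 counts in each library and passed the filter on low counts in each comparison. Ddx5 (chromosome 11, 106780355 to 106789185) had 14679 and 16039 raw counts in WTIEC colon and 6653 and 7779 in DDX5ΔIEC colon, with a log2 fold change of -1.04 ± 0.09 (SE). In the ileum its raw counts were 15179 and 10095 in WTIEC and 3627 and 3049 in DDX5ΔIEC, with a log2 fold change of -1.07 ± 0.18. Markers of ileal epithelium summed to 6800 to 12100 counts scaled to library depth as CPM in the ileum and 170 to 352 CPM in the colon, and markers of colonic epithelium to 4340 to 5580 CPM in the colon and 615 to 729 CPM in the ileum. Most of the last sum was Car4, a gene of the colonic list that was higher in WTIEC ileum (471 and 541 CPM) than in WTIEC colon (244 and 237 CPM). In DDX5ΔIEC ileum replicate 2, 3 genes of repeat-like sequence, Gm10800, Gm10801 and Gm21738, took 19.5% of the counts, against 0.226% in replicate 1. Their share was 4.045% and 3.927% in the WTIEC ileum libraries and 0.001% to 0.261% in the colon libraries. Without these 3 genes, as many of the 36 genes met the criterion used below in each tissue, but after adjustment none of them passed in the ileum. T cell markers were present in every library, at summed levels of 8.32 to 77.5 CPM. Most of that sum in each library was Ptprc, a gene of all leukocytes and not of T cells alone. Myeloid markers summed to 2.59 to 12.1 CPM, fibroblast, muscle and endothelial markers to 2.84 to 15 CPM, and B and plasma cell markers to 0.352 to 3.10 CPM. The plasmacytoid dendritic cell list was at 27.3 to 46.6 CPM, nearly all of it Tcf4, and among its other genes Siglech was at 0 in 3 libraries and Clec10a in 5.

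Per kilobase of gene length and on the scale of all 8 libraries, the highest mean level in each of the 4 groups was that of Lgals3bp, a secreted galectin-3-binding glycoprotein. In WTIEC colon it stood at 42.9 and 47.4 CPM per kilobase, and its neighbour in the order, Oas1a, an enzyme that makes the 2′-5′ oligoadenylates that activate RNase L, at 44.0 and 43.4. These ranges overlapped, and Irf7, the transcription factor that amplifies interferon production, came next at 32.5 and 33.2. In WTIEC ileum, Lgals3bp stood at 34.8 and 36.9 CPM per kilobase and Dtx3l, a ubiquitin ligase that works with PARP9, at 36.8 and 33.2. Those values overlapped too, and Parp9 followed at 31.6 and 28.0 CPM per kilobase. The order therefore differed between the tissues, with Dtx3l, Parp9, Parp14 and Oasl1 among the leading 6 genes of the WTIEC ileum and none of those 4 among the leading 6 of the WTIEC colon.

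**Figure D1:**
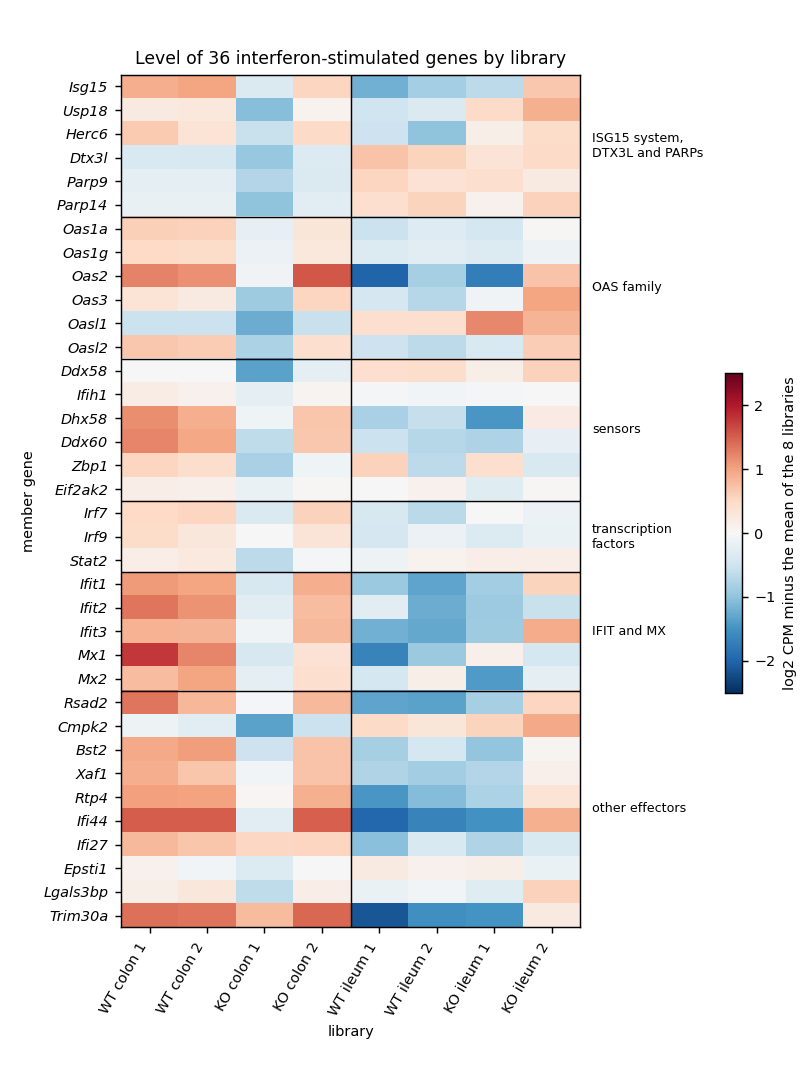
Heat map of the 36 genes (rows) in the 8 libraries (columns), colored by log2 CPM minus the gene's mean over the 8 libraries; DDX5KO stands for DDX5ΔIEC and WT for WTIEC. Among the colon columns, DDX5KO replicate 1 was the lowest for 36 of 36 genes, and among the ileum columns DDX5KO replicate 2 was the highest for 24 of 36.

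To ask how the loss of epithelial DDX5 bears on these genes in the colon, DDX5ΔIEC was compared with WTIEC over the 4 colon libraries. The fitted log2 fold change was negative for 36 of 36 genes, with a median of -0.53 (from -1.51 to -0.20), while the median over all 15362 genes tested was 0. The study's criterion asks for an absolute log2 fold change of 0.5 or more and an unadjusted p-value under 0.05. By it, 13 of the 36 genes were lower in DDX5ΔIEC and 0 were higher. Over all genes tested, 3.67% were lower by this criterion and 3.04% were higher. None of the 36 had an adjusted p-value under 0.05 by edgeR's quasi-likelihood test, where 0 of all genes passed after adjustment and 17 of the 36 had an unadjusted p-value under 0.05, beside 12% of all genes. DESeq2 called 1 of the 36 after adjustment with the replicate number as a block and 2 without it, and its share of all genes after adjustment is not given here. At an unadjusted p-value under 0.05, DESeq2 had 14 of the 36 with the block and 13 without it, beside 4.92% and 7.47% of all genes. These are bulk measurements, in which fewer cells of a type and less RNA per cell cannot be told apart.

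Among the 6 sensors of foreign nucleic acid, 4 passed the criterion, the largest share of any role, and the median of the 6 was -0.76. Zbp1, a sensor of Z-form nucleic acids, was at 36 and 33.9 CPM in WTIEC colon and at 14.2 and 23.1 CPM in DDX5ΔIEC colon, a log2 fold change of -0.94 ± 0.21 (SE, adjusted p = 0.282). Ddx58, which encodes the RNA sensor RIG-I, was at 44.2 and 45.1 CPM and at 17.7 and 37.5 CPM in the same order, with -0.77 ± 0.26 (adjusted p = 0.371). In both genes each DDX5ΔIEC library lay below each WTIEC library, and replicate 1 was the lower of the DDX5ΔIEC pair. Ddx60, a helicase linked to RIG-I signaling, was at 163 and 138 CPM in WTIEC and 44.8 and 111 CPM in DDX5ΔIEC (log2 fold change -1.07 ± 0.37, adjusted p = 0.388). Dhx58, which encodes the regulatory helicase LGP2, was at 26.9 and 22.6 CPM and at 11.1 and 19.1 CPM (log2 fold change -0.74 ± 0.26, adjusted p = 0.395). Their groups did not overlap either. Ifih1, which encodes the double-stranded RNA sensor MDA5, was at 148 and 141 CPM in WTIEC and 111 and 137 CPM in DDX5ΔIEC. Its log2 fold change of -0.23 missed the criterion, as did -0.22 for Eif2ak2, the kinase PKR that stops translation on sensing double-stranded RNA.

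Of the 5 Ifit and Mx genes, whose products bind foreign RNA or trap viral particles, 3 passed the criterion in the colon, and the median was -0.78. Mx1, a dynamin-like antiviral GTPase, was at 43.7 and 30.4 CPM in WTIEC and at 9.72 and 16.4 CPM in DDX5ΔIEC. Both DDX5ΔIEC libraries stood well below both WTIEC libraries, and its log2 fold change of -1.51 ± 0.31 was the lowest of the 36 genes (adjusted p = 0.269). Mx2 was at 6.09 and 7.14 CPM and at 3.04 and 4.76 CPM (log2 fold change -0.78 ± 0.22, adjusted p = 0.337). Ifit2 was at 26.2 and 22.9 CPM and at 8.68 and 17.6 CPM (log2 fold change -0.96 ± 0.30, adjusted p = 0.353). The groups were separate in both genes. Ifit1 (-0.76) and Ifit3 (-0.48) missed the criterion.

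Among the 6 genes for ISG15 conjugation and for ubiquitin and ADP-ribose transfer, Isg15 alone passed the criterion in the colon. Isg15, the ubiquitin-like protein that is attached to other proteins under interferon, was at 17.1 and 18.2 CPM in WTIEC and at 7.04 and 13.2 CPM in DDX5ΔIEC (log2 fold change -0.85 ± 0.23, adjusted p = 0.321). Usp18, the protease that removes ISG15 and restrains the interferon receptor, had a log2 fold change of -0.72 (adjusted p = 0.425) and missed it. Parp14, an ADP-ribosyltransferase, was at 153 and 156 CPM in WTIEC and 87.2 and 143 CPM in DDX5ΔIEC, with -0.47 (adjusted p = 0.406). Its 2 DDX5ΔIEC libraries differed from each other more than the WTIEC libraries did. Herc6, the main ISG15 ligase of the mouse, Dtx3l and Parp9 had log2 fold changes of -0.52, -0.26 and -0.33, none of which passed.

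In the oligoadenylate synthetase family, 2 of 6 genes passed. Oas1a was at 91.7 and 91.1 CPM in WTIEC colon and at 52.7 and 74.1 CPM in DDX5ΔIEC colon, a log2 fold change of -0.55 ± 0.14 (adjusted p = 0.320), and the groups did not overlap. Oasl2, a synthetase-like protein with ubiquitin-like domains, was at 99.6 and 97.1 CPM and at 36 and 83.2 CPM (log2 fold change -0.84 ± 0.30, adjusted p = 0.402). Oas2 and Oas3 behaved otherwise, since DDX5ΔIEC replicate 2 was the highest of the 4 colon libraries for both. Oas2 was at 20.5 and 19.2 CPM in WTIEC and 8.08 and 25.2 CPM in DDX5ΔIEC, and Oas3 at 47.6 and 44.0 CPM against 20.0 and 54.3 CPM. Their groups overlapped, and their log2 fold changes of -0.42 and -0.45 missed the criterion.

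Of the 3 transcription factors, Stat2 passed in the colon. Stat2, a subunit of ISGF3, was at 67.7 and 71.6 CPM in WTIEC and at 38.1 and 58.7 CPM in DDX5ΔIEC (log2 fold change -0.55 ± 0.16, adjusted p = 0.330). Irf9, the DNA-binding subunit of the same complex, was at 58.3 and 51.9 CPM and at 41.8 and 52.5 CPM (log2 fold change -0.23 ± 0.15, adjusted p = 0.578). Irf7 was at 136 and 140 CPM in WTIEC and at 74.1 and 142 CPM in DDX5ΔIEC (log2 fold change -0.42 ± 0.22, adjusted p = 0.511). For both Irf9 and Irf7 the second DDX5ΔIEC library lay above the lower WTIEC library, so the groups overlapped.

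Among the 10 other effectors, 2 passed in the colon. Bst2, or tetherin, which holds budding virus at the membrane, was at 18.1 and 19.6 CPM in WTIEC and at 6.56 and 15.3 CPM in DDX5ΔIEC (log2 fold change -0.88 ± 0.29, adjusted p = 0.359). Cmpk2, a mitochondrial nucleotide kinase, was at 26.0 and 23.9 CPM and at 11.1 and 19.3 CPM (log2 fold change -0.75 ± 0.24, adjusted p = 0.354). The groups did not overlap in either gene. Lgals3bp, at 135 and 150 CPM in WTIEC and 78.6 and 136 CPM in DDX5ΔIEC, did overlap (log2 fold change -0.46, adjusted p = 0.402). Its second DDX5ΔIEC library was level with the first WTIEC library. Ifi44 had one of the larger estimates of the rest, -0.84 ± 0.43 (adjusted p = 0.503), with 6.07 CPM in DDX5ΔIEC replicate 1 and 20.8 to 21.1 CPM in the other 3 libraries. Rsad2, or viperin (-0.68), Rtp4 (-0.55), Xaf1 (-0.47), Ifi27 (-0.24), Trim30a (-0.24) and Epsti1 (-0.20) missed the criterion as well.

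**Figure D2:**
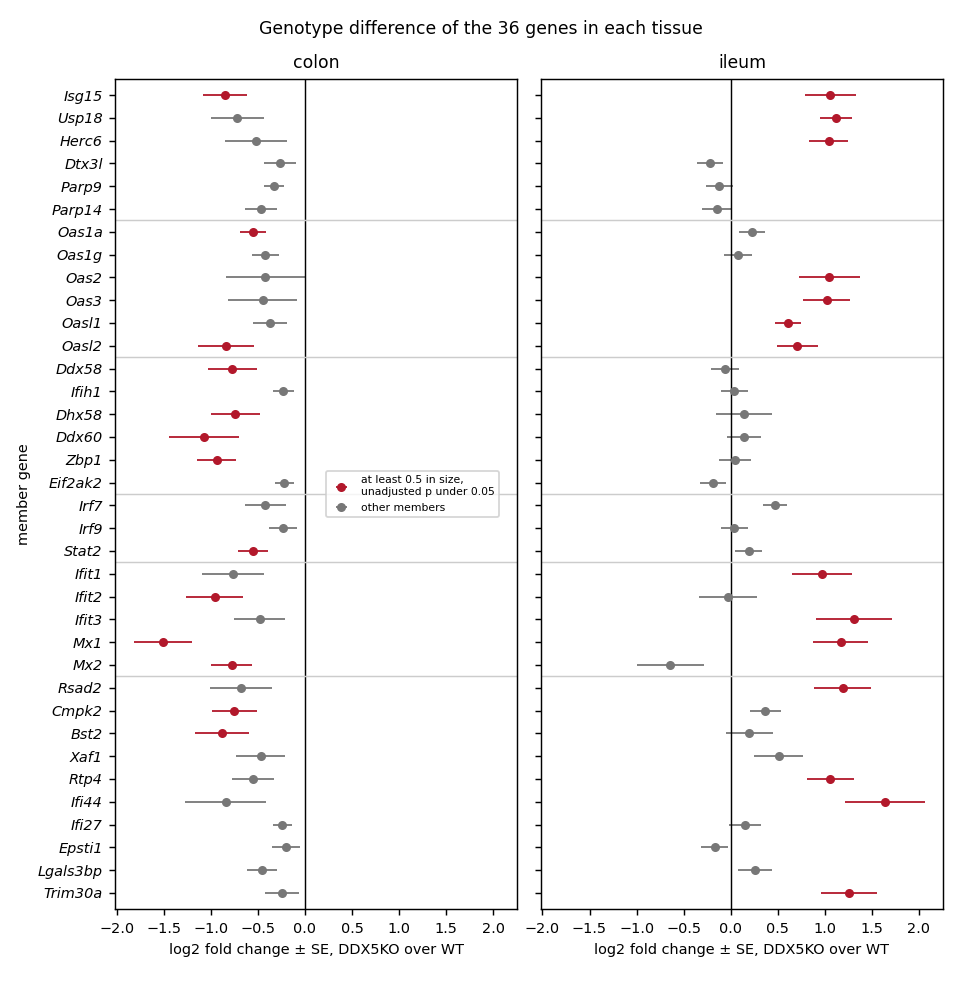
Log2 fold change of DDX5ΔIEC over WTIEC with its standard error (x axis) for each of the 36 genes (y axis), colon on the left and ileum on the right, with genes that passed the criterion marked by color. All 36 points lie below 0 in the colon (13 passed), and in the ileum 28 lie above 0 (14 passed) while the sensors stay near 0.

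The colon difference rested unevenly on the mice. In replicate pair 1, the log2 ratio of DDX5ΔIEC to WTIEC was below 0 for 36 of 36 genes, with a median of -0.99 (from -2.16 to -0.30). In pair 2 the median was -0.14 (from -0.89 to 0.39), and 27 genes were below 0. Thus 27 genes (75.0%) were lower in both pairs, beside 30.4% of all genes tested, and for 26 (72.2%) both DDX5ΔIEC libraries lay below both WTIEC libraries, beside 22.0% of all genes. DDX5ΔIEC colon replicate 1 was the lowest of the 4 libraries for 36 of 36 genes, where it was the lowest for 31.1% of all genes. It lay below DDX5ΔIEC replicate 2 by a median of 0.79 on the log2 scale, while the WTIEC libraries differed by a median of -0.04 (replicate 2 minus replicate 1). Mx1 kept the widest separation in pair 2 (-0.89, against -2.16 in pair 1), followed by Mx2 (-0.57), Zbp1 (-0.55) and Isg15 (-0.46).

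Leaving out 1 colon library moved the size of the difference. The fit of the other 7 libraries had a term for each tissue and genotype and no block, and the group with 1 library is assumed to vary like the others. With all 8 libraries this fit had 6 of the 36 genes lower by the criterion, beside 535 of all 16178 genes, and a median of -0.47. Without DDX5ΔIEC colon replicate 1, 31 genes were negative with a median of -0.14, and Mx1 had a log2 fold change of -1.17. Without DDX5ΔIEC colon replicate 2, 36 were negative and the median was -1.02. Without WTIEC colon replicate 1 or replicate 2 the medians were -0.45 and -0.52.

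T cell markers moved with these genes in the colon. Their summed level was 38.2 and 29.1 CPM in WTIEC and 8.32 and 16.9 CPM in DDX5ΔIEC, with DDX5ΔIEC replicate 1 again the lowest. Of 8 markers, 7 could be tested, all 7 were negative, and 4 passed the criterion, namely Cd3d (-1.99), Cd8a (-2.22), Itgae (-1.09) and the leukocyte gene Ptprc (-1.43). Cd2 was at 0 in DDX5ΔIEC colon replicate 1. Markers of epithelium summed to 10800 and 10500 CPM in WTIEC and 11900 and 11200 CPM in DDX5ΔIEC. Myeloid markers summed to 5.30 and 3.43 CPM and to 2.59 and 2.64 CPM, and none of the 3 that could be tested passed. Among the fibroblast, muscle and endothelial markers (10.5 and 15 CPM in WTIEC, 14 and 5.96 CPM in DDX5ΔIEC), Dcn was lower (-1.49, adjusted p = 0.413) and Pecam1 higher (0.88, adjusted p = 0.401) by the criterion. Markers of colonic epithelium summed to 4340 and 4590 CPM in WTIEC and 5130 and 5580 CPM in DDX5ΔIEC, and 3 of 7 were higher by the criterion, Aqp8 (0.79), Slc26a3 (0.70) and Car4 (0.63, adjusted p from 0.166 to 0.274). Markers of ileal epithelium summed to 241 and 227 CPM in WTIEC colon and 170 and 352 CPM in DDX5ΔIEC colon. Of the 4 that could be tested, 2 were negative and 2 positive. Fabp6 was higher by the criterion (1.09, adjusted p = 0.303 by edgeR's quasi-likelihood test). Slc10a2 was at 39.8 and 38.9 CPM and at 9.26 and 65.4 CPM, and Sis at 6.66 and 4.66 CPM and at 0.386 and 12.2 CPM. These sums and levels are on the scale of all 8 libraries. The part of these cells in the difference was not tested.

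**Figure D3:**
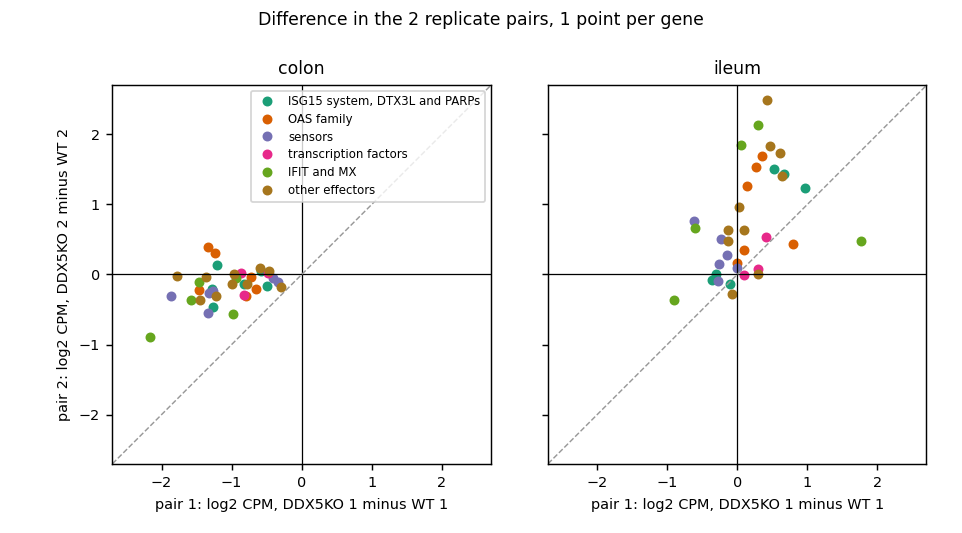
Log2 CPM of DDX5ΔIEC minus WTIEC in replicate pair 1 (x axis) and replicate pair 2 (y axis), one point per gene colored by role, colon on the left and ileum on the right. Colon points lie left of 0 for 36 of 36 genes with medians of -0.99 (pair 1) and -0.14 (pair 2), and ileum points have medians of 0.10 and 0.52.

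The same comparison in the ileum pointed the other way. The fitted log2 fold change was positive for 28 genes and negative for 8, with a median of 0.24 (from -0.64 to 1.64) beside 0 over all 14068 genes tested. By the criterion, 14 of the 36 genes were higher in DDX5ΔIEC and 0 were lower, against 3.87% higher and 3.48% lower over all genes tested. Usp18 alone had an adjusted p-value under 0.05, a level that 0.697% of all genes reached. At an unadjusted p-value under 0.05 there were 16 of the 36, beside 12.3% of all genes. DESeq2 called 0 of them after adjustment with the replicate block and 1 without it, and edgeR called 0 without the block and 13 with the block but no filter on low counts. The share of all genes that passed after adjustment without the filter is not given here. In that fit 17 of the 36 had an unadjusted p-value under 0.05, beside 5.66% of all genes.

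Among the genes for ISG15 conjugation and for ubiquitin and ADP-ribose transfer, the conjugation genes passed and the others did not. Usp18 was at 8.31 and 9.19 CPM in WTIEC ileum and at 16.4 and 22.0 CPM in DDX5ΔIEC ileum, and rose by 1.12 ± 0.17 on the log2 scale (adjusted p = 0.0191 by edgeR's quasi-likelihood test). Herc6 was at 7.68 and 5.54 CPM and at 12.2 and 15.2 CPM (log2 fold change 1.04 ± 0.21, adjusted p = 0.0632). In both genes the DDX5ΔIEC libraries lay above the WTIEC libraries. Isg15 was at 3.26 and 4.15 CPM in WTIEC and at 4.76 and 12 CPM in DDX5ΔIEC (log2 fold change 1.06 ± 0.27, adjusted p = 0.126). Its groups were separate too, with replicate 2 far above replicate 1 in DDX5ΔIEC. Parp14 was at 194 and 213 CPM in WTIEC and 156 and 215 CPM in DDX5ΔIEC (log2 fold change -0.15 ± 0.15, adjusted p = 0.757). Dtx3l was at 191 and 173 CPM and at 148 and 163 CPM (-0.22 ± 0.14, adjusted p = 0.579), and Parp9 at 139 and 124 CPM and at 129 and 113 CPM (-0.12 ± 0.14, adjusted p = 0.794). None of these 3 transfer genes passed.

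In the oligoadenylate synthetase family, 4 of 6 genes passed in the ileum, all higher in DDX5ΔIEC. Oasl1, a synthetase-like protein known to restrain the translation of Irf7, was at 54.2 and 54.5 CPM in WTIEC and at 93.8 and 73.6 CPM in DDX5ΔIEC (log2 fold change 0.61 ± 0.14, adjusted p = 0.1). Oas3 was at 22.8 and 18.8 CPM and at 29.1 and 60.8 CPM (1.02 ± 0.25, adjusted p = 0.117). Both had separate groups, but replicate 1 was the higher DDX5ΔIEC library for Oasl1 and replicate 2 for Oas3. Oas2 was at 1.75 and 3.97 CPM in WTIEC and at 2.13 and 11.7 CPM in DDX5ΔIEC (1.05 ± 0.32, adjusted p = 0.208). Its groups overlapped, since DDX5ΔIEC replicate 1 lay below WTIEC replicate 2. Oasl2 passed with 0.71 ± 0.22 (adjusted p = 0.214), while Oas1a (0.23) and Oas1g (0.08) did not.

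Mx1, Ifit1 and Ifit3 passed among the Ifit and Mx genes. Mx1 was at 3.30 and 5.54 CPM in WTIEC ileum and at 11.6 and 7.77 CPM in DDX5ΔIEC ileum (log2 fold change 1.17 ± 0.29, adjusted p = 0.116). Ifit3 was at 2.13 and 2.01 CPM and at 2.64 and 9.33 CPM (1.31 ± 0.40, adjusted p = 0.204), and Ifit1 had 0.97 ± 0.32 (adjusted p = 0.255). For Mx1 the larger value was in DDX5ΔIEC replicate 1, and for Ifit3 in replicate 2. Mx2 stood at 2.17 and 3.27 CPM in WTIEC and 1.11 and 2.53 CPM in DDX5ΔIEC, with the lowest estimate of the 36 genes (-0.64 ± 0.36, adjusted p = 0.517). Ifit2 had -0.03.

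Of the 10 other effectors, 4 passed in the ileum. Trim30a, a tripartite-motif protein of the mouse, was at 2.30 and 3.46 CPM in WTIEC and at 3.57 and 11.8 CPM in DDX5ΔIEC (log2 fold change 1.26 ± 0.30, adjusted p = 0.103). Rtp4, a Golgi chaperone, was at 3.55 and 4.60 CPM and at 5.61 and 12.3 CPM (1.06 ± 0.25, adjusted p = 0.0977). Rsad2, which makes a chain-terminating nucleotide, was at 4.22 and 4.15 CPM and at 5.87 and 15.3 CPM (1.19 ± 0.30, adjusted p = 0.119). In all 3 genes the groups were separate and DDX5ΔIEC replicate 2 was the highest. Ifi44 was at 1.54 and 1.89 CPM in WTIEC and at 2.13 and 11.2 CPM in DDX5ΔIEC, with the largest estimate of the 36 genes, 1.64 ± 0.42 (adjusted p = 0.132). Its groups were separate, with replicate 2 alone far above the rest. Cmpk2 (0.37), Xaf1 (0.51), Lgals3bp (0.26), Bst2 (0.20), Ifi27 (0.15) and Epsti1 (-0.17) missed the criterion.

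The sensors, which had the largest share of calls in the colon, had none in the ileum. Their 6 log2 fold changes ran from -0.19 (Eif2ak2) to 0.14 (Ddx60 and Dhx58), with a median of 0.04. The transcription factors had none either. Irf7 was at 59.3 and 49.0 CPM in WTIEC and at 78.7 and 71.1 CPM in DDX5ΔIEC (log2 fold change 0.47 ± 0.13, adjusted p = 0.178), just under the fold change that the criterion asks for, with separate groups. Stat2 was at 45.1 and 52.9 CPM and at 55.6 and 56.0 CPM (0.19 ± 0.14, adjusted p = 0.635), and Irf9 at 25.7 and 31.4 CPM and at 27.5 and 31.1 CPM (0.04 ± 0.14, adjusted p = 0.947). The Irf9 values overlapped fully.

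In the ileum the median log2 ratio was 0.10 in pair 1 (from -0.90 to 1.77) and 0.52 in pair 2 (from -0.36 to 2.49). A total of 19 genes (52.8%) were higher in both pairs, beside 27.5% of all genes tested, and 5 (13.9%) were lower in both, beside 30.2%. For 17 genes (47.2%) both DDX5ΔIEC libraries lay above both WTIEC libraries, where 19.0% of all genes did so. DDX5ΔIEC ileum replicate 2 was the highest library for 24 of the 36 genes (66.7%), beside 25.5% of all genes. The fit without a block had 11 genes higher by the criterion with all 8 libraries, beside 519 of all 16178 genes, and a median of 0.30. In that fit without DDX5ΔIEC ileum replicate 2, 20 genes were positive and the median was 0.05. Without WTIEC ileum replicate 1 or 2 the median was 0.48 or 0.37, and without DDX5ΔIEC ileum replicate 1 it was 0.50. DDX5ΔIEC ileum replicate 2 is also the library with the largest share of repeat-like counts. T cell markers summed to 65 and 77.5 CPM in WTIEC ileum and 62.1 and 52.4 CPM in DDX5ΔIEC ileum, and 0 of the 6 that could be tested passed the criterion, with 1 at an unadjusted p-value under 0.05. Of the 6, 2 were negative and 4 positive. The leukocyte gene Ptprc held most of these sums, at 46.1 and 67.7 CPM in WTIEC and 41.9 and 42.1 CPM in DDX5ΔIEC on the same scale. Among myeloid markers, at 10.3 and 7.27 CPM in WTIEC and 12.1 and 10.3 CPM in DDX5ΔIEC, 1 of 5 was higher by the criterion, Lyz2 (2.18, adjusted p = 0.0894). Of the colonic epithelium markers 2 of 5 were lower, Car1 (-2.16, adjusted p = 0.0617) and Aqp4 (-0.86, adjusted p = 0.0426). The part of other cells and of the repeat-like counts in the difference was not tested.

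Since each mouse gave both tissues, the order of the 2 mice of a genotype could be followed from colon to ileum. DDX5ΔIEC mouse 2 was above DDX5ΔIEC mouse 1 in both tissues for 30 of the 36 genes (83.3%) and below it in both for 0, where 29.5% of 13567 genes tested in both tissues were higher in both. The median difference between these mice was 0.79 (colon) and 0.45 (ileum) on the log2 scale. The 6 exceptions, which were lower in mouse 2 in the ileum, were Mx1, Oasl1, Zbp1, Irf7, Parp9 and Epsti1. Between the WTIEC mice, mouse 2 was higher in both tissues for 9 genes (25.0%), beside 28.8% of all genes, and lower in both for 14. The share of all genes that were lower in both is not given here for either genotype. The median differences between the WTIEC mice, replicate 2 minus replicate 1, were -0.04 (colon) and 0.04 (ileum).

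Basal levels differed between the tissues of WTIEC mice. In the ileum, 21 of the 36 genes were lower than in the colon at an adjusted p-value under 0.05 and 4 were higher, with a median log2 difference of -1.03 (from -3.34 to 1.03). Over all 16178 genes tested, 16.8% were lower and 17.4% higher, and the median was -0.02. By role, 7 of 10 other effectors, 4 of 5 Ifit and Mx genes, 4 of 6 oligoadenylate synthetases, 2 of 6 sensors, 2 of 3 transcription factors and 2 of 6 conjugation and transfer genes were lower. Levels in this comparison are CPM on the scale of all 8 libraries. Mx1 was at 39.5 and 27.3 CPM in the colon and at 3.64 and 6.10 CPM in the ileum of the same WTIEC mice, a log2 difference of -2.80 ± 0.35 (SE, adjusted p = 0.000507). Trim30a was at 28.9 and 28.0 CPM against 2.53 and 3.81 CPM (-3.19 ± 0.47, adjusted p = 0.00119). Ifi44 was at 19.0 and 18.9 CPM against 1.70 and 2.08 CPM (-3.34 ± 0.75, adjusted p = 0.00978). No ileum library of these 3 genes came near a colon library. Rsad2 (-2.42, adjusted p = 0.00334), Oas2 (-2.55, adjusted p = 0.0301) and Rtp4 (-2.29, adjusted p = 0.00217) came next. Of the transcription factors, Irf7 (-1.05, adjusted p = 0.0143) and Irf9 (-0.66, adjusted p = 0.0117) were lower in the ileum, while Stat2 had -0.22 (adjusted p = 0.414).

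The 4 genes with higher levels in WTIEC ileum were Dtx3l, Parp9, Parp14 and Oasl1. Dtx3l was at 98.8 and 97.2 CPM in the colon and 211 and 190 CPM in the ileum (log2 difference 1.03 ± 0.18, adjusted p = 0.00311). Oasl1 was at 31.1 and 30.9 CPM in the colon and at 59.9 CPM in both ileum libraries (0.95 ± 0.21, adjusted p = 0.00875). Parp9 (0.67, adjusted p = 0.00667) and Parp14 (0.69, adjusted p = 0.0490) had smaller differences, and the tissues were separate for each of the 4. Dtx3l, Parp9 and Parp14 are the chromosome 16 neighbours. Other neighbours differed in direction, as Oasl2, next to Oasl1, was at 90.0 and 87.2 CPM in the colon and 39.4 and 36 CPM in the ileum (-1.23, adjusted p = 0.0415). Cmpk2, next to Rsad2, was at 23.5 and 21.4 CPM in the colon and 35.6 and 31.7 CPM in the ileum, a log2 difference of 0.58 that did not pass (adjusted p = 0.0916).

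In DDX5ΔIEC mice the tissue difference of these genes had another shape. At an adjusted p-value under 0.05, 2 genes were lower in the ileum and 7 were higher, with a median of -0.16 (from -1.57 to 1.89), beside 17.3% of all genes lower and 18.0% higher. With the mouse as a block, which uses that both tissues came from the same animals, the counts were 11 lower and 10 higher in DDX5ΔIEC, against 25 lower and 5 higher in WTIEC. The share of all genes that passed after adjustment in that fit is not given here. At an unadjusted p-value under 0.05 by edgeR it had 27 of the 36 in DDX5ΔIEC and 31 in WTIEC, beside 47.6% and 46.6% of all genes. The genes that were lower without the block were Trim30a (-1.57, adjusted p = 0.0251) and Ifi27 (-1.09, adjusted p = 0.00494). The higher genes were Oasl1 (1.89, adjusted p = 0.000299), Cmpk2 (1.66, adjusted p = 0.00122), Ddx58 (1.06, adjusted p = 0.0261), Usp18 (1.06, adjusted p = 0.0324), Dtx3l (1.02, adjusted p = 0.00334), Parp14 (0.97, adjusted p = 0.0126) and Parp9 (0.86, adjusted p = 0.00211). Mx1 was at 8.82 and 14.9 CPM in DDX5ΔIEC colon and at 12.7 and 8.55 CPM in DDX5ΔIEC ileum, so its tissues overlapped (-0.16 ± 0.34, adjusted p = 0.757). Within single mice, the median ileum minus colon difference was -1.15 and -1.08 in the WTIEC mice and -0.13 and -0.27 in the DDX5ΔIEC mice. The fitted median moved with single libraries in DDX5ΔIEC. It was -0.49 without colon replicate 1, 0.32 without colon replicate 2, 0.05 without ileum replicate 1 and -0.35 without ileum replicate 2. In WTIEC the fitted median was -1.08, -1.04, -1.14 and -1.08 without colon replicate 1, colon replicate 2, ileum replicate 1 and ileum replicate 2.

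**Figure D4:**
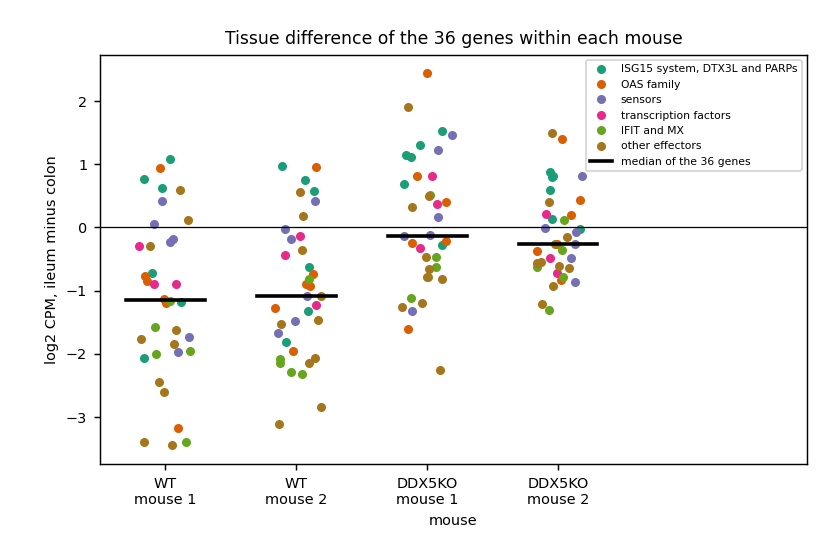
Log2 CPM in the ileum minus log2 CPM in the colon of the same mouse (y axis) for the 36 genes in each of the 4 mice (x axis), colored by role, with a bar at the median. The medians were -1.15 and -1.08 in WT mice 1 and 2 and -0.13 and -0.27 in DDX5KO (DDX5ΔIEC) mice 1 and 2.

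Whether the genotype effect differed between the tissues was tested with the interaction term over all 8 libraries. The estimate, the ileum effect minus the colon effect, was positive for 35 of 36 genes, with a median of 0.96 (from -0.01 to 2.65). No member had an adjusted p-value under 0.05 by edgeR's quasi-likelihood test, where 0.0124% of all genes did, and DESeq2 called 1. At an unadjusted p-value under 0.05 there were 15 of 36, beside 4.67% of all genes, and with the mouse as a block there were 26, beside 6.37% of all genes in that fit, again with 0 after adjustment. Mx1 had the smallest p-value, with an interaction of 2.65 ± 0.49 (unadjusted p = 0.000553, adjusted p = 0.639). Mx1, Isg15 and Oasl2 were the only genes of the 36 that were lower by the criterion in the colon and higher by it in the ileum. Over all genes tested, 3.67% were lower by the criterion in the colon and 3.87% higher in the ileum. The share of all genes that were both is not given here. Without a filter on low counts, 16 of the 36 passed after adjustment by edgeR, and the share of all genes that did so is not given here. In that fit 26 of the 36 had an unadjusted p-value under 0.05, beside 3.53% of all genes. As each library was left out, the median interaction was between 0.57 (without DDX5ΔIEC colon replicate 1) and 1.41 (without DDX5ΔIEC colon replicate 2). It was 0.61 without DDX5ΔIEC ileum replicate 2.

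The rest of the pathway was followed in a list of 85 further genes, of which the tables list 75. Upstream of the 36 genes, 11 interferon genes were listed, their summed level was 0 to 0.855 CPM, and 0 of them passed the filter on low counts, so a difference in interferon mRNA was not detectable at this depth. None of the 4 receptor chains tested, Ifnar1, Ifnar2, Ifnlr1 and Il10rb, passed the criterion in either genotype comparison, where their unadjusted p-values were 0.0634 or more. In WTIEC mice 3 of them were higher in the ileum than in the colon, Ifnlr1, the chain particular to interferon lambda (1.00, adjusted p = 0.000697), Ifnar1, a chain of the type I receptor (0.67, adjusted p = 0.00151), and Il10rb, the chain that pairs with Ifnlr1 (0.45, adjusted p = 0.0255).

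Of the other pathway genes, 60 could be tested in the colon, with a median log2 fold change of -0.16, and 7 were lower and 1 higher in DDX5ΔIEC by the criterion, which 6.71% of all genes met in either direction. Ifitm3, which blocks virus entry from endosomes, was at 15.3 and 13.4 CPM in WTIEC and 4.25 and 6.87 CPM in DDX5ΔIEC (log2 fold change -1.38, adjusted p = 0.262). Socs1, a feedback inhibitor of JAK kinases, was at 7.14 and 5.14 CPM and at 1.52 and 3.21 CPM (-1.39, adjusted p = 0.340). Tmem173, which encodes the adaptor STING (-0.70), Phf11d (-0.91), Sp110 (-0.75), Tor3a (-0.60) and Rnf213 (-0.55) were the other 5. Socs3, a feedback inhibitor of cytokine signaling, was higher, at 6.32 and 4.45 CPM in WTIEC and 9.11 and 20.8 CPM in DDX5ΔIEC (1.39, adjusted p = 0.342). The groups were separate for 7 of these 8 genes, but the criterion that chose them favors separate groups. Over all genes tested, both DDX5ΔIEC libraries lay below both WTIEC libraries for 22.0% and above them for 22.5%. Rnf213, at 539 and 615 CPM in WTIEC and 284 and 542 CPM in DDX5ΔIEC, overlapped, and none of the 8 passed after adjustment.

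In the ileum 56 of these genes could be tested, with a median of 0.10, and 2 were lower and 3 higher, where 7.35% of all genes met the criterion in either direction. Socs1 was at 16.3 and 17.7 CPM in WTIEC and at 9.01 and 6.32 CPM in DDX5ΔIEC, and fell by 1.15 ± 0.20 on the log2 scale (SE, adjusted p = 0.0288 by edgeR's quasi-likelihood test). It was lower in DDX5ΔIEC in each replicate pair of both tissues. Ptpn6, a phosphatase that dampens JAK signaling, was at 31.8 and 38.9 CPM and at 27.7 and 21.8 CPM (-0.51, adjusted p = 0.258). Higher were Oas1b (1.29, adjusted p = 0.198), Apol9b (0.93, adjusted p = 0.0720) and Apol9a (0.75, adjusted p = 0.110), of which Apol9a was at 6.76 and 7.55 CPM in WTIEC and 11.9 and 12.1 CPM in DDX5ΔIEC.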

How the data were processed

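RNAseq of EDTA-released IECs was analyzed in 8 libraries, grouped by the sample labels. For each tissue the authors deposited 1 table with whole-number counts per gene (exons, uniquely mapped reads), made with STAR 2.6.1a and featureCounts on mm10. The same tables hold a normalized signal, which the authors made by dividing the counts by a DESeq2 1.18.1 size factor within a tissue; it served only to link libraries to mice. The authors' own comparison (log2 fold change, standard error, Wald statistic, p-value and adjusted p-value) was deposited beside them and was not used. No per-sample column was left out (0).

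The counts were tested with edgeR 4.0.16 (quasi-likelihood test, TMM, filterByExpr with a minimum count of 10) in R 4.3.3, and p-values were adjusted over all genes tested by the Benjamini-Hochberg method. Genotypes were compared within each tissue with a block for the replicate number, since the study's design had a harvest covariate and its methods describe pairs of cohoused littermates; the labels do not say which mice shared a harvest. Tissues and the interaction were fitted over all 8 libraries with a term per group, where a gene listed in 1 table counted as 0 in the other. CPM are TMM-scaled within a tissue for genotypes, and over 8 libraries for tissues, levels per kilobase and summed lists; pair values are log2 CPM with a prior count of 2. The deviations of same-numbered libraries from their group means correlated across genes with r = 0.00559 (colon) and 0.24 (ileum) between genotypes, and with 0.139 (WTIEC) and 0.144 (DDX5ΔIEC) between the tissues of 1 mouse. The mouse of each library was taken from identical normalized values of 37 of 37 genes in the study's supplement.

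The 36 genes, the pathway and marker lists and the tests were chosen with earlier results of these data known. Values in every library are given for genes past the criterion (at most the 12 with the smallest p per tissue), the 3 with the highest CPM per tissue, not divided by gene length, and Irf7, Irf9 and Stat2; others, such as Oasl2, Ifi44 and Oas2 in the colon and Mx2 in the ileum, were chosen after their values were seen. Alternatives were no block, crossed pairs, DESeq2 1.42.0 with and without the block, RLE scaling, no filter, 1 fit of 8 libraries, no repeat-like genes, and each library left out. The fits were tested on simulated data. Promoter windows came from RefSeq (GRCm38.p6), gene positions from GENCODE (GRCm38). With 2 mice a group, p-values rest on few degrees of freedom.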

Additional observations from a re-analysis of the deposited data

Results flagged for a closer look

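By the fitted genotype effect, 36 of 36 genes were negative in the colon and 28 were positive in the ileum. For 13 of the 36 genes the replicate pairs of the 2 tissues moved in opposite directions. These genes were lower in DDX5ΔIEC in both colon pairs and higher in both ileum pairs (36.1% of the 36, against 4.72% of the 13567 genes tested in both tissues). They were singled out because every pair of one tissue moved one way and every pair of the other tissue the opposite way, whatever the size. Several pair values were close to 0. In colon pair 2 they were -0.02 for Ifi44, -0.03 for Rsad2 and Oasl1, -0.05 for Ifit3 and -0.10 for Ifit1. Ifit1 had 0.05 in ileum pair 1, and Stat2 had 0.08 in ileum pair 2. The pair values nearest 0 were 0.48 for Mx1 and -0.46 for Isg15. The difference of the effects, ileum minus colon on the log2 scale, was 2.65 for Mx1, 2.57 for Ifi44, 1.97 for Rsad2, 1.95 for Isg15, 1.92 for Ifit3, 1.75 for Usp18, 1.72 for Ifit1, 1.63 for Rtp4, 1.49 for Oasl2, 1.07 for Cmpk2, 0.94 for Oasl1, 0.75 for Oas1a and 0.70 for Stat2. The test of the difference itself, the interaction term of edgeR's quasi-likelihood test, gave unadjusted p-values from 0.000553 (Mx1) to 0.035 (Ifi44). The same values chose these genes and enter the test, so that small unadjusted p-values are built into the choice. After adjustment over all genes none passed, the smallest adjusted p being 0.639 for Mx1. Groups of 2 libraries are too small to single out a library by the gap to its neighbours.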

How the results depend on the processing

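The colon count of 13 lower genes became 6 with all 8 libraries in 1 fit, 0 at an adjusted p-value under 0.05 and 1 to 28 as each library was left out, and the 8 other pathway genes became 5, 0 and 3 to 14. In the ileum, the 14 higher genes became 1 at an adjusted p-value under 0.05 and 2 to 15 with a library left out, the 5 other pathway genes 1 and 3 to 7, and the 0 lower genes became 1 without a filter and 0 to 1 with a library left out. For WTIEC, the 4 genes higher in the ileum became 1 to 5 and the 21 lower became 11 to 23 with a library left out. For DDX5ΔIEC, the 7 higher became 4 to 10, and the 2 lower became 1 to 10, 14 without a filter and 11 with the mouse as a replicate block. The 0 genes with an interaction became 16 without a filter, 1 by DESeq2 and 0 to 1 with a library left out. The cause was not tested, except that fits without 1 library have fewer samples. Without the replicate block 9 genes were lower in the colon and 13 higher in the ileum, and with crossed pairs 17 and 13. At an unadjusted p-value under 0.05 by edgeR there were 11 (colon) and 14 (ileum) of the 36 without the block, beside 11.6% and 8.24% of all genes. With crossed pairs there were 21 and 14, beside 9.76% and 5.61%.

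The genes given with all libraries had 280 alternative values from fits that left out no library. Of these, 262 kept their direction and their side of the criterion, 18 no longer passed and 0 changed sign. Of 140 further values with a library left out, 5 changed sign. With each library left out, Irf7 in the colon ran from -0.89 to 0.05 (without DDX5ΔIEC replicate 1). In the ileum Oas2 ran from -0.36 (without DDX5ΔIEC replicate 2) to 2.07, Parp14 from -0.37 to 0.07 (without DDX5ΔIEC replicate 1) and Irf9 from -0.10 (without WTIEC replicate 1; -0.03 without DDX5ΔIEC replicate 2) to 0.18. RLE scaling moved the median of the 36 genes by at most 0.03. Genes under 5 CPM in WTIEC ileum rest on few reads.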
